A study of Mus musculus with 2 samples.

Results

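The genes described here are 10 of the 28692 genes listed in the deposited matrices: Fos, Fosb, Jun, Junb and Jund, which encode subunits of the transcription factor AP-1, and Egr1, Ier2, Dusp1, Zfp36 and Btg2, which like them belong to the immediate early genes. They were taken by gene symbol, and all 10 were found. Single-cell RNA sequencing with a 10x Genomics kit had been run on CD45+ leukocytes of adipose tissue from wild-type C57BL/6 mice, visceral adipose tissue per the series title. Cells resident in the tissue had been told from those in the circulation by an intravenous label. One library came from chow-fed mice, and the other from mice fed for 1 week with a ketogenic diet, which raises blood ketone bodies. The sample titles call the mice adult, and their exact age and the number of mice behind each library are not given in the sources used here. With 1 library per diet no difference between the diets has a replicate check, no p-value is given, and a difference between the diets cannot be told apart from one between any 2 libraries.

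Immediate early genes are transcribed within minutes of a stimulus by factors that are already present in the cell, such as SRF with its ternary complex partners and CREB, without new protein synthesis. Fos proteins pair with Jun proteins to form AP-1, which binds DNA and drives genes of growth, cytokine production and stress. The response is shut off by products of the same wave: Dusp1 dephosphorylates the p38 and JNK kinases, Zfp36 (tristetraprolin) sends AU-rich mRNAs to decay, and Btg2 recruits the CCR4-NOT deadenylase and restrains proliferation. In leukocytes the genes respond to antigen receptors, cytokines and microbial ligands, and they are also known to be induced while a tissue is dissociated into cells.

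Promoter sequences are shown for Btg2, Fosb and Zfp36 because these are the members in which the letters of an EGR site, the motif that Egr1 and its relatives bind, were found, and because Egr1 had the lowest ratio between the diets of all members. Each line holds the 250 bases before the RefSeq start of the gene, 5′ to 3′ on the gene's own strand, with matches to a full motif in capitals.

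Btg2: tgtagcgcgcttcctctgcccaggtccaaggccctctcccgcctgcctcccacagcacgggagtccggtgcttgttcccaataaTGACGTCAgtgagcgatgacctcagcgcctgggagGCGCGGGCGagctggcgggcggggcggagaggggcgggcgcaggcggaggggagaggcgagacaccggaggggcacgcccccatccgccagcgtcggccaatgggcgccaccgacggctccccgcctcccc

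Fosb: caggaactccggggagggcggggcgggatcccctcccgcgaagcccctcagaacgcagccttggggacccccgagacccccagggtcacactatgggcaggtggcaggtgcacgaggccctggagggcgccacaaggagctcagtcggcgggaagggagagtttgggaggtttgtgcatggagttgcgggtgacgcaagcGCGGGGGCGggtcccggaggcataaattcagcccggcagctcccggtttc

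Zfp36: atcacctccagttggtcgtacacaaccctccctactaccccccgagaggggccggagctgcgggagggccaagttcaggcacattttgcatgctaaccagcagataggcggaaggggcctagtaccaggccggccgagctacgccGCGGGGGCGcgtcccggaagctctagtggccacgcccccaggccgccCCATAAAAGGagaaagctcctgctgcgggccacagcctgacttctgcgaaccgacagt

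These stretches come from RefSeq on GRCm38.p6 and lie on the minus strand at chr1:134079156-134079405 (Btg2), chr7:19310046-19310295 (Fosb) and chr7:28379229-28379478 (Zfp36). The last lies inside the longer GENCODE gene model of Zfp36. Of the 10 members, 8 had a promoter in the RefSeq table, and Egr1 and Ier2 had none. The Jund stretch ends at 70697738 on chromosome 8, well before the GENCODE start of the gene at 70698949, so it does not cover that start. The EGR site was searched as GCGNGGGCG on both strands, and it stood in 3 of the 8 members and in 4.7% of 32851 promoter stretches of the same length. In Btg2 it spans bases −131 to −123 from the start, in Fosb −50 to −42, and in Zfp36 −105 to −97. The full cyclic AMP response element TGACGTCA, a CREB site, stood in 2 members, Btg2 at −166 to −159 and Dusp1 at −143 to −136, against 1.55% of promoters. Its first 5 letters, TGACG, which also lie within the full element, stood in 5 members against 17.8% of promoters. The CArG box, the site of SRF, stood in 1 member, Zfp36, at −58 to −49, against 1.47%. The TATA box letters TATAAA stood in 1 member, Fos, against 12.4%, and the AP-1 site TGANTCA in 0 of the 8 against 6.75%. A match is a string of letters in this window and not a measured binding site.

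The chow library held 4545 cells with a median of 3469 UMIs (unique molecular identifiers, each standing for 1 captured transcript), and the ketogenic library 5614 cells with a median of 3461.5. The authors' deposited table put 4458 and 5559 of them into 13 clusters, numbered only. The clusters are named here from marker genes and written as X-like: 0 is ILC2-like (group 2 innate lymphoid cells), 1 NK-like, 2 T-like with CD4 and CD8 genes, 3 macrophage-like, 5 and 6 cDC2-like and cDC1-like (conventional dendritic cells), 7 Treg-like, 9 B and plasma-like, 10 cycling, 11 γδ T-like and 12 mature DC-like. Cluster 4, with T cell genes and NK receptors, and cluster 8, led by Retnla, Fcrls and Lyz1, have no name. The clusters differ in size between the libraries, with 859 chow and 145 ketogenic cells in cluster 3 and 362 and 47 in cluster 8 at the extreme. The 10 members together took 198180 UMIs in the chow library (0.928% of the UMIs of clustered cells) and 238756 in the ketogenic library (0.923%). The libraries share 41 cell barcodes. Of the marker lists for cell types without a cluster of their own, all 5 neutrophil genes were detected in both libraries and summed to 98.2 CPM (counts scaled to a total of 1000000) under chow and 8.35 under the ketogenic diet, while 4 of 5 erythroid genes summed to 18.2 and 114 CPM with Alas2 at 0. Adipocyte genes (3 of 5 detected, Lep at 0) summed to 0.749 and 0.425 CPM, stromal genes (6 of 6) to 78.5 and 68.5 and endothelial genes (5 of 5) to 16.8 and 21.8. Mast cell genes (4 of 5 under chow, 5 of 5 under the ketogenic diet) summed to 34.7 and 33.6 CPM. Some of these genes were at least 2-fold higher in a named cluster than in the other clusters together. They were Hba-a1, Hba-a2, Tpsb2 and Kit in cluster 0, S100a8, S100a9 and Csf3r in cluster 3, and Gsn in cluster 5. The sums therefore do not count cells of these types, and the part of such cells in the results was not tested.

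Values are UMIs summed over the cells of a cluster and library and scaled to CPM, with 95% exact Poisson intervals in square brackets. Ratios are ketogenic over chow, on a log2 scale with 0.5 added to each count, and their exact intervals, like those of the levels, cover counting error only. Folds, and the exact intervals of ratios within clusters, come from counts without the added 0.5. UMIs of a 3′ kit are not divided by length, so no level is compared between genes. All 130 pairs of member and cluster had at least 10 UMIs over both libraries (the lowest had 25). A pair is called when it differs at least 2-fold.

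**Figure D1:**
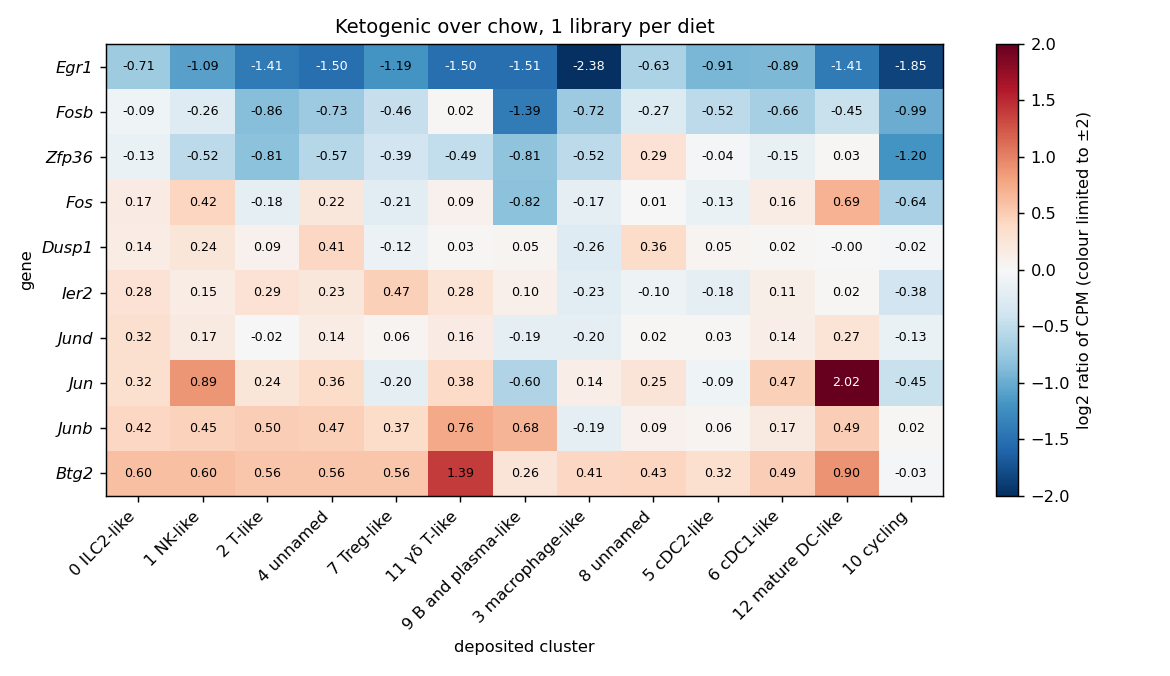
Heat map of the log2 ratio of CPM, ketogenic over chow, for the 10 genes (rows, ordered by their ratio over all cells) in the 13 deposited clusters (columns), with the ratio printed in each field and the colour limited to ±2. The Egr1 row is below 0 in 13 of 13 clusters, the Fosb row in 12 and the Zfp36 row in 11, and the Junb and Btg2 rows are above 0 in 12 each.

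Over the 13 clusters the members did not move as 1 block between the diets. Egr1 was lower under the ketogenic diet in 13 of 13 clusters, Fosb in 12 and Zfp36 in 11, whereas Btg2 and Junb were each higher in 12, and Fos was split between 7 higher and 6 lower. Of the 4333 genes measured in all 13 clusters, 2.49% were lower in 13, 7.39% in at least 12 and 12.4% in at least 11, and 15.2% were higher in at least 12. Of the 130 pairs, 70 were higher and 60 lower at any size, near the background of 55.2% higher and 44.8% lower over all pairs of gene and cluster. The interval of the ratio lay above 1 in 46 pairs, below 1 in 48 and included 1 in 36. The same shares over all genes were not computed, and these intervals narrow as UMIs rise. The 2-fold call was met by 2 pairs in the higher direction, Btg2 in cluster 11 and Jun in cluster 12, where 7.68% of the 115758 pairs of any gene and cluster met it. In the lower direction 11 pairs met it, 9 of them Egr1, against 5.72% of pairs. The members' counts are therefore below the background for higher calls and somewhat above it for lower calls, and the latter are mostly 1 gene.

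With each cluster given the same weight in both libraries, the median log2 ratio of the 10 members was 0.10, beside 0.06 for 10361 genes with at least 100 UMIs. Summed without weights, the members' median was −0.25 and that of all genes 0.13. Egr1 was the only weighted member past 2-fold, and it went from 235 to 106 CPM, a log2 ratio of −1.15 [−1.23 to −1.07]. Among all 10361 genes 0.898% were past 2-fold lower and 0.627% past 2-fold higher. Btg2 had the highest ratio of the members, 0.53 [0.49 to 0.56], from 868 to 1250 CPM. Junb followed at 0.33 (2254 to 2843 CPM), and Fosb (835 to 677 CPM) and Zfp36 (473 to 395 CPM) were lower at −0.30 and −0.26. The remaining members lay closer to 0: Jun at 0.20, Jund at 0.16, Ier2 at 0.14, Dusp1 at 0.05 and Fos at −0.01. Without the weights, when all clustered cells were summed, Jun stood at −0.21, Dusp1 at −0.42, Fos at −0.57, Zfp36 at −0.88 and Egr1 at −1.69, so the direction of Jun and Dusp1 depends on whether cluster sizes are held equal.

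Egr1 (ENSMUSG00000038418, chromosome 18 from 34859823 to 34864984, plus strand, GRCm38 in GENCODE M21) encodes a zinc finger transcription factor of the first wave after a stimulus. Under chow its level was highest in 3 of the myeloid clusters, at 529.6 CPM [503–557] in cluster 8, 489 [460.0–519] in cDC2-like and 453 [435–472] in macrophage-like cells. Under the ketogenic diet the same clusters stood at 341 [273–422], 259.8 [241–279.6] and 86.2 [68–108] CPM, so the first pair kept its place at the top and the macrophage-like cluster did not. The macrophage-like change was the largest of all 130 pairs, from 2300 UMIs to 77, a log2 ratio of −2.38 or 5.25-fold lower [4.19–6.68]. In this cluster 7.34% of 10008 genes were at least 2-fold higher and 6.27% at least 2-fold lower.

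Cluster 3 holds cells with and without UMIs of the complement genes C1qa, C1qb and C1qc, which mark resident macrophages, and Egr1 was lower in both. The same split of cluster 8 did not show this. In cells with such UMIs (417 chow, 39 ketogenic) it went from 568 to 138 CPM, a log2 ratio of −2.02. Cells without them (442 chow, 106 ketogenic) went from 330 to 63.1 CPM, a log2 ratio of −2.37. In cluster 8, cells with C1q UMIs (122 chow, 14 ketogenic) had Egr1 at 516 and 497 CPM, a log2 ratio of −0.03 whose interval included 1, and cells without (240 chow, 33 ketogenic) at 537 and 290.1 CPM, a ratio of −0.88. Btg2 there was lower in the cells with C1q UMIs (−0.79) and higher in those without (0.65). These cells of cluster 8 include 19 of 47 ketogenic cells that were low in Malat1 and carried 0.824 member UMIs per 1000, against 13.9 in the rest, and their part in the split was not tested. Thinned to 1000 UMIs per cell, 26.1% [23.2–29.2] of chow and 6.21% [2.88–11.5] of ketogenic cells of cluster 3 had an Egr1 UMI, and 53.9% and 18.6% before thinning.

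The lymphoid clusters stood below these 3 under chow. ILC2-like cells went from 243 [223–263] to 148 [137–160] CPM (log2 ratio −0.71) and Treg-like cells from 321 [273–375] to 141 [122–162] CPM (−1.19). NK-like cells stood at 66.7 [55.3–79.8] and 31.4 [25.9–37.8] CPM (−1.09), T-like cells at 105 [80.7–133] and 39.5 [32.4–47.6] CPM (−1.41), and cluster 4 at 87.6 [67.8–111] and 30.9 [23.6–39.8] CPM (−1.50). None of these chow and ketogenic intervals overlap. In γδ T-like cells 18 chow and 23 ketogenic UMIs gave 94.8 [56.2–150] and 33.7 [21.4–50.6] CPM (−1.50), with 22.0% of these UMIs in 1 cell. B and plasma-like cells stood at 164 [136–197] and 57.5 [46.8–69.9] CPM (−1.51), but at −0.58 without cells above 2 times the cluster's median UMIs, which ends that 2-fold call. The calls in NK-like cells (−0.67 with free RNA subtracted), T-like cells (−0.89 in newly made clusters), Treg-like cells (−0.95 without cells of high UMIs) and mature DC-like cells (−0.996 with free RNA subtracted) also ended under 1 alternative or more.

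The same direction was found in the remaining clusters. The cycling cluster went from 369 [337–402] to 102 [87.1–119] CPM (log2 ratio −1.85), cDC1-like cells from 180.4 [164–198] to 97.1 [87–108] CPM (−0.89), and mature DC-like cells from 48.8 [29.4–76.2] to 17.3 [6.36–37.7] CPM (−1.41) on 19 and 6 UMIs. In all 13 clusters the interval of the Egr1 ratio lay below 1, but in cluster 8 it included 1 (log2 ratio −0.22) without the cells low in the nuclear RNA Malat1 described further on. Of 4333 genes measured in all 13 clusters, 2.49% were lower and 6.32% higher in all 13. The clusters are parts of the same 2 libraries and are not replicates of the diets. Over all clustered cells thinned to 1000 UMIs, 18.1% [16.9–19.2] of chow and 7.14% [6.48–7.85] of ketogenic cells had an Egr1 UMI (40.0% and 20.3% unthinned), a comparison that also carries the smaller ketogenic share of clusters 3 and 8. No cell type is known to lack these genes, so no share from cells that should lack them can be set beside these shares.

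**Figure D2:**
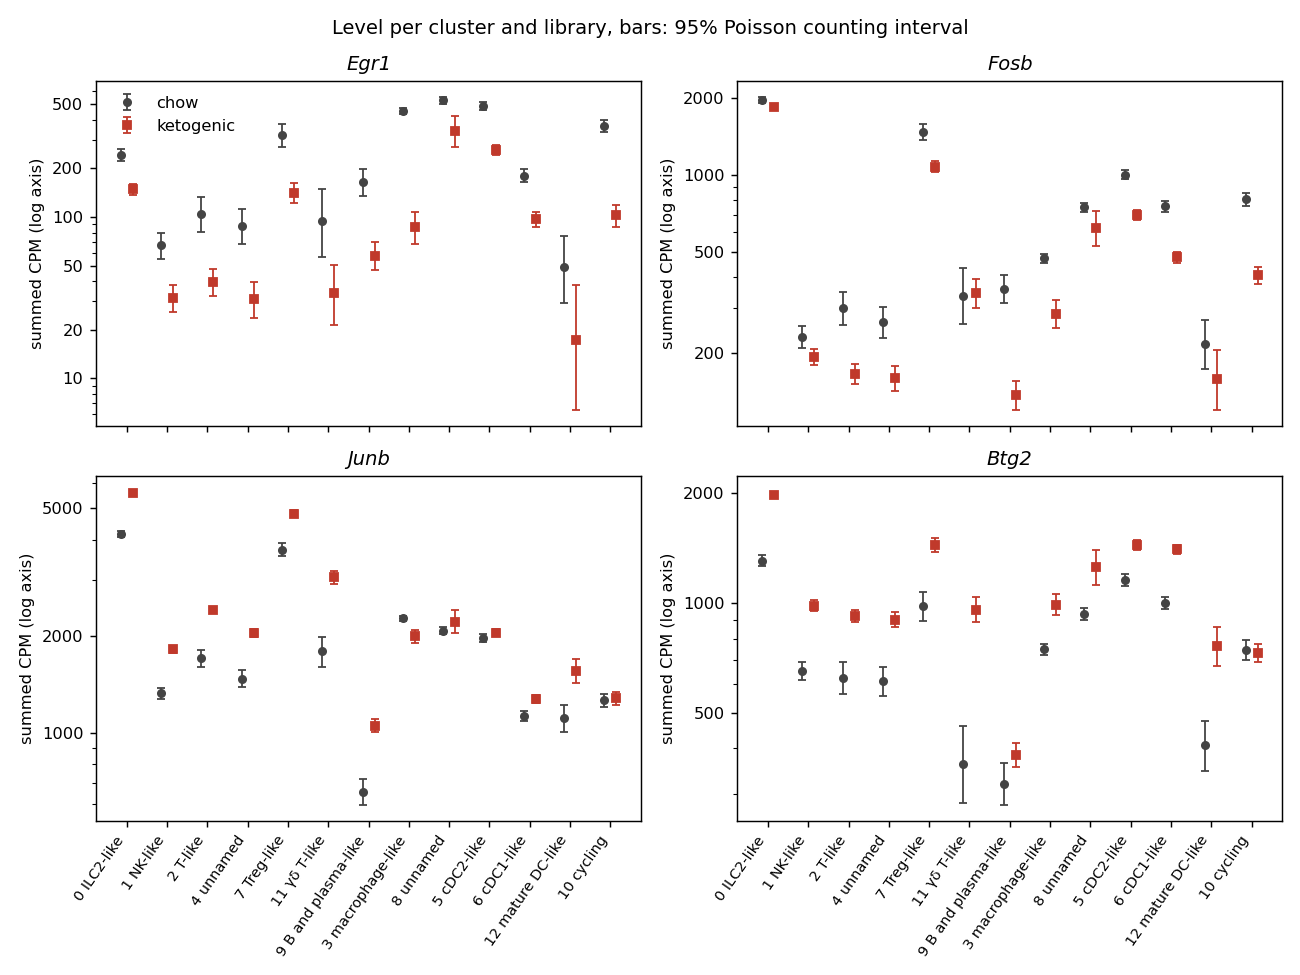
Level in CPM (log axis) of Egr1, Fosb, Junb and Btg2 in each deposited cluster, for the chow library (grey circles) and the ketogenic library (red squares), with bars for the 95% Poisson counting interval. Egr1 lies lower under the ketogenic diet in 13 of 13 clusters, down to 86.2 from 453 CPM in macrophage-like cells, and Btg2 lies higher in 12.

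Of the Fos proteins, Fosb (ENSMUSG00000003545, chromosome 7 from 19302696 to 19310051, minus strand) was the member next to Egr1 in how often it was lower, and its interval lay below 1 in 11 clusters. Its level under chow was highest in ILC2-like cells at 1974 CPM [1918–2032] and in Treg-like cells at 1479 [1375–1590.2], and under the ketogenic diet the same clusters led at 1858 [1818–1899] and 1079.5 [1026–1135]. The order of the top of the list was the same in both libraries, although the levels were not. B and plasma-like cells met the 2-fold call, with 358 CPM [316–405] from 253 UMIs under chow and 137 [119.9–155] from 240 UMIs under the ketogenic diet, which gives a log2 ratio of −1.39. The cycling cluster came close to it at −0.99 (804 to 405 CPM), and T-like cells (301 to 166 CPM), cluster 4 (265 to 159.8 CPM) and macrophage-like cells (471 to 286 CPM) stood at −0.86, −0.73 and −0.72. In γδ T-like cells alone the ratio was not below 0, at 0.02 (337 to 344 CPM), and it is below 0 there when levels are scaled to the median gene. In cluster 8 the ratio of −0.27 became 0.11 without the cells low in Malat1, with an interval that included 1.

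Fos (ENSMUSG00000021250, chromosome 12 from 85473890 to 85477273, plus strand), the founding subunit of AP-1, had no pair past 2-fold. It was highest in macrophage-like cells in both libraries, at 1885 CPM [1848–1923] under chow and 1671 [1587–1758] with ketogenic feeding, and cDC2-like cells followed at 1366 [1318–1416] and 1251 [1209–1293]. Its ratio was below 0 in B and plasma-like cells (564 to 319 CPM, −0.82) and in cycling cells (1161 to 745 CPM, −0.64). It was above 0 in mature DC-like cells (200.3 to 324 CPM, 0.69), where 11.1% of its UMIs came from 1 cell, and in NK-like cells (438 to 588 CPM, 0.42). The intervals lay below 1 in the first pair of clusters and above 1 in the latter pair.

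Among the Jun proteins, Junb (ENSMUSG00000052837, chromosome 8 from 84974484 to 84978718, minus strand), a partner of Fos proteins that is also needed for Th17 and Th2 programs, was higher in 12 clusters under the ketogenic diet, with the interval above 1 in 10. ILC2-like cells carried it at 4167 CPM [4086–4250.1] under chow and 5566 [5496–5636] under the ketogenic diet (log2 ratio 0.42), and Treg-like cells at 3718 [3550.2–3891] and 4820.0 [4706–4936] (0.37). These clusters stood above the other 11 in both libraries. The highest ratios were those of γδ T-like cells, from 1796 [1610.4–1997] to 3050.2 CPM [2921–3184] (0.76), and B and plasma-like cells, from 656 [597–718] to 1054 CPM [1006–1103] (0.68). In B and plasma-like cells the median of all genes was itself 0.47, beside 0.05 in γδ T-like cells, so most of the 0.68 is shared with the median gene. Macrophage-like cells went the other way, from 2275 [2234–2317] to 1999 CPM [1907–2094] (−0.19). A gene higher in at least 12 clusters is common here, 15.2% of 4333 genes, and 6.32% were higher in 13. The gene model overlaps that of Prdx2 on the opposite strand, and whether counting used strand is not given in the sources used here.

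Jund (ENSMUSG00000071076, chromosome 8 from 70698949 to 70700616, plus strand), the Jun protein that resting cells also express, differed least across clusters between the diets. All 13 ratios lay between −0.20 in macrophage-like and 0.32 in ILC2-like cells. ILC2-like cells had 3754 CPM [3676–3833] under chow and 4685 [4621–4749.8] with ketogenic feeding, and Treg-like cells 3567 [3403–3737] and 3719 [3619–3821]. These were again the top of the order in both libraries. Jund overlaps Gm11175 on the opposite strand.

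Jun (ENSMUSG00000052684, chromosome 4 from 95049034 to 95052222, minus strand) rested on few UMIs in some clusters, such as 23 in chow T-like cells. Mature DC-like cells met the 2-fold call, with 28.2 CPM [14.1–50.5] from 11 UMIs under chow and 119 [85–161] from 41 UMIs under the ketogenic diet, which gives a log2 ratio of 2.02, or 4.2-fold [2.12–9.05]. Of these 52 UMIs 21.2% came from 1 cell, and 3.33% of thinned chow and 8.16% of thinned ketogenic cells had a UMI (13.3% and 34.7% unthinned). The size of this ratio also depends on the processing, and it was larger with free RNA subtracted. In NK-like cells it went from 41.2 [32.3–51.7] to 76.5 CPM [67.7–86.1] (0.89). It was highest in cDC2-like cells at 474 [446–504] and 446 CPM [422–472], whose intervals overlap. B and plasma-like cells (171 to 113 CPM, −0.60) and cycling cells (197 to 145 CPM, −0.45) were lower. Jun overlaps Junos on the opposite strand.

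Ier2 (ENSMUSG00000053560, chromosome 8 from 84661331 to 84662852, minus strand) encodes a small nuclear protein of the immediate early wave, and it had no pair past 2-fold. It was higher in 9 clusters and lower in 4, with the interval above 1 in 5 and below 1 in 3. Treg-like cells went from 479.8 [421–545] to 665 CPM [623–709] (log2 ratio 0.47) and ILC2-like cells from 630.2 [599–663] to 766 [740.4–793] (0.28). The cycling cluster was lower, from 435 [400.4–471] to 334 CPM [306–363] (−0.38), as were macrophage-like cells (397 to 338 CPM, −0.23) and cDC2-like cells (626 to 551 CPM, −0.18).

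Of the genes that end the response, Btg2 (ENSMUSG00000020423, chromosome 1 from 134075170 to 134079120, minus strand) was higher in 12 of 13 clusters, and in these 12 the interval lay above 1. In 5 of the lymphoid clusters the ratios lay between 0.56 and 0.60. ILC2-like cells went from 1308 [1262–1355] to 1978 CPM [1936–2020.2], a log2 ratio of 0.60. NK-like cells went from 651 [614–689] to 984 CPM [952–1017], T-like cells from 624 [564–689] to 922 [886–958], cluster 4 from 612 [557–670.4] to 902 [860.3–945] and Treg-like cells from 979.6 [895–1070.5] to 1444 [1382–1508], ratios of 0.60, 0.56, 0.56 and 0.56. None of these intervals overlap between the libraries. B and plasma-like cells had a smaller ratio of 0.26, at 320.1 and 383 CPM, which is −0.25 when scaled to the median gene. γδ T-like cells had a larger one of 1.39 and were the only cluster to meet the 2-fold call, with 69 chow and 655 ketogenic UMIs. This pair was known from an earlier look at these libraries, so it is no independent support. Its share of thinned cells with a UMI there was 28.8% [17.8–42.1] and 58.2% [50.4–65.7], and 62.7% and 92.9% unthinned.

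In the myeloid and cycling clusters the Btg2 ratios ranged from −0.03 to 0.90. Macrophage-like cells went from 747 [723–771] to 989.8 CPM [926–1057] (0.41), cDC2-like cells from 1159.8 [1115–1206] to 1446 [1402–1492] (0.32) and cDC1-like cells from 1002 [963–1043] to 1404 [1365–1444] (0.49). Cluster 8 stood at 935 and 1254 CPM (0.43), and mature DC-like cells went from 408 [347–477] to 763 CPM [674–861] (0.90) on 159 and 264 UMIs. In the cycling cluster the 746 [701–793] and 729 CPM [688–773] gave −0.03, with overlapping intervals. Over all cells thinned to 1000 UMIs, 52.4% [50.9–53.9] of chow and 62.5% [61.2–63.8] of ketogenic cells had a Btg2 UMI (85.9% and 91.9% unthinned).

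Zfp36 (ENSMUSG00000044786, chromosome 7 from 28376784 to 28380253, minus strand) was lower in 11 clusters, with the interval below 1 in 9. The cycling cluster met the 2-fold call, from 532 [495–572] to 232 CPM [209–257], a log2 ratio of −1.20 or 2.29-fold lower [2.02–2.61]. T-like and B and plasma-like cells stood at −0.81 each (135 to 77.1 and 248 to 142 CPM), and macrophage-like cells, which had the highest chow level, went from 1032 [1004–1060.3] to 719 CPM [664–777] (−0.52). Its gene model overlaps Gm44710 on the opposite strand. Cluster 8 was the exception with an interval above 1, from 781 [749.6–814] to 953 CPM [836–1081] (0.29). In its cells with C1q UMIs the ratio was −0.33 with an interval that included 1, and in those without it was 0.46. Thinned cells with a Zfp36 UMI came to 33.9% under chow and 20.9% with ketogenic feeding (64.6% and 47.4% unthinned), a comparison over all clusters that also carries their sizes.

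Dusp1 (ENSMUSG00000024190, chromosome 17 from 26505590 to 26562128, minus strand) had no pair past 2-fold, and its interval included 1 in 8 clusters. Macrophage-like cells held the highest level in both libraries, 1895 CPM [1857–1933] under chow and 1587 [1505–1671] with ketogenic feeding, and were the cluster whose interval lay below 1 (log2 ratio −0.26). It was above 1 in ILC2-like cells (926 to 1023 CPM, 0.14), NK-like cells (552 to 654 CPM, 0.24), cluster 4 (499 to 662 CPM, 0.41) and cluster 8 (1087 to 1393 CPM, 0.36). In B and plasma-like cells it was lowest in both libraries, at 179.9 [150.0–214] and 187 CPM [168–209]. Its gene model overlaps 4 others, Ergic1 among them.

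**Figure D3:**
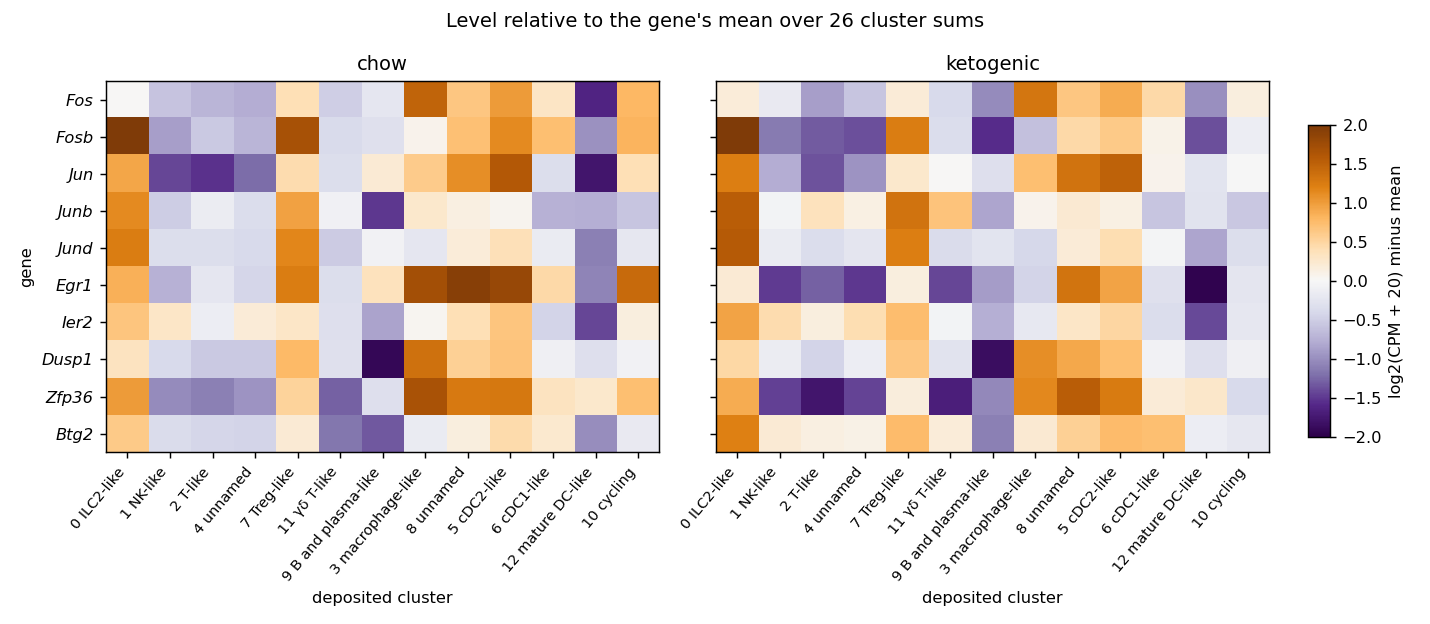
Heat map of log2(CPM + 20) minus the gene's mean over its 26 sums of cluster and library, for the 10 genes (rows) in the 13 clusters (columns), with the chow library on the left and the ketogenic library on the right. The ILC2-like and Treg-like columns are high for Fosb, Junb and Jund in both libraries, and the macrophage-like, cDC2-like and unnamed cluster 8 columns for Fos, Dusp1 and Zfp36.

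Across clusters the members fell into unlike patterns. Fosb, Junb and Jund were led by the ILC2-like and Treg-like clusters in both libraries, and Fos and Dusp1 by the macrophage-like cluster. The authors may have used these genes to form the clusters, so the levels across clusters are a description. The order of the 13 clusters was similar between the libraries, with Spearman correlations from 0.82 for Jund to 0.92 for Dusp1 (13 clusters that share 2 libraries). Neighbours in these orders often did not differ beyond counting error: of 12 neighbouring pairs, between 4 (Junb under chow) and 9 (Ier2 under chow) had a ratio whose interval included 1. Over the 26 sums of cluster and library, log2(CPM + 20) of member pairs correlated from 0.18 for Ier2 with Zfp36 to 0.85 for Fosb with Jund, and these sums share 2 libraries and their depth.

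The genes whose levels were most like the members' mean over the same 26 sums, out of 4505 genes with at least 1000 UMIs, were Nr4a1 (Pearson r 0.91), Klf4 (0.88), Arl5b (0.87), Ccnl1 (0.86), Phlda1 (0.85), Ifrd1, Csrnp1, Zfand5 and Nfkbiz (0.84 each) and Atf3 (0.82). Nr4a1, an orphan nuclear receptor of the immediate early wave, had a cluster-weighted ratio of −0.11, and Nfkbiz, an IκB family protein, −0.54.

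By cluster, the lymphoid ones had the members split between Egr1 below and Junb and Btg2 above. Shares of all genes higher and lower at any size were taken over all clusters together, 55.2% and 44.8%, and not per cluster. In ILC2-like cells 7 of 10 members were higher and the median was 0.23, with 0 members past 2-fold in either direction, where 3.63% of 10373 genes were past it higher and 4.86% lower. NK-like cells also had 7 higher and Egr1 past 2-fold lower, against 3.51% of genes higher and 4.16% lower. T-like cells were split between 5 higher and 5 lower, with Egr1 past 2-fold, against backgrounds of 7.84% higher and 5.69% lower. Egr1 was again the member past 2-fold lower in cluster 4 (backgrounds 5.44% higher and 5.6% lower) and in Treg-like cells (8.43% and 4.87%). Treg-like cells had 4 members higher and 6 lower, with a median of −0.16. In γδ T-like cells 8 members were higher, with Btg2 past 2-fold higher and Egr1 past 2-fold lower, against 10.1% of genes higher and 6.68% lower.

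B and plasma-like cells need a reference of their own. There the median ratio of all 8341 genes was 0.47, beside −0.01 to 0.08 in the other 12 clusters, and 23.1% of genes were past 2-fold higher and 3.13% lower. The members' median was −0.39, and Egr1 and Fosb were past 2-fold lower. Scaled to the median of the cluster's genes with at least 100 UMIs, which was 0.50, Egr1 stood at −2.02 and Fosb at −1.895. The mix of this cluster also differs between the libraries. Of the newly made clusters that hold most of its cells, the smaller had 35 chow and 52 ketogenic cells, and the larger 48 and 199. The part of this mix in the ratios was not tested.

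The myeloid and cycling clusters differed among themselves. In macrophage-like cells 8 of 10 members were lower and the median was −0.22, beside 0.07 for all genes there. Egr1 was past 2-fold lower, against 6.27% of genes (7.34% higher). In cycling cells 9 were lower with a median of −0.41, beside 0.07 for all genes there. Egr1 and Zfp36 were past 2-fold lower, against 6.49% of genes (8.48% higher). In cDC2-like cells 6 were lower and 0 past 2-fold, with backgrounds of 5.95% higher and 3.43% lower, and in cDC1-like cells 3 were lower and 0 past 2-fold, with 4.36% and 4.1%. Mature DC-like cells had 7 higher, with Jun past 2-fold higher and Egr1 past 2-fold lower, against 8.47% and 7.23%. Cluster 8 had 7 higher and 0 past 2-fold, against 6.88% of genes higher and 13.2% lower.

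Cluster 8 holds cells in the ketogenic library that stand apart. Of its 47 ketogenic cells 19 (40.4%) had fewer than 2 UMIs of the nuclear RNA Malat1 per 1000 UMIs, as had 20 of 362 chow cells (5.52%), against 27 of 5559 and 26 of 4458 clustered cells overall. These cells carried 0.824 member UMIs per 1000 under the ketogenic diet and 1.31 under chow, and the other cells of the cluster 13.9 and 10.04. Without them Egr1 in cluster 8 stood at −0.22 (541 to 461 CPM) with an interval that included 1, in place of −0.63, and Btg2 at 0.82 (953 to 1679 CPM) in place of 0.43. Without them 9 of 10 members were higher in this cluster, in place of 7. The share of all genes higher after the same removal was not computed, so this count has no background. Zfp36 stood at 0.68, Dusp1 at 0.74, Jun at 0.63, Junb at 0.48, Fos at 0.40, Jund at 0.35, Ier2 at 0.27 and Fosb at 0.11. Ier2 and Fosb changed direction, and their intervals included 1. This split was made after the data had been seen.

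Single cells varied widely within a cluster. The UMIs of the 10 members per 1000 UMIs of a cell had a median of 13.7 in chow and 16.6 in ketogenic ILC2-like cells, with 5th to 95th percentiles of 5.95 to 28.4 and 6.82 to 32.5. Treg-like cells stood at 13.3 and 14.2, macrophage-like cells at 8.73 and 6.35, and mature DC-like cells, the lowest under chow, at 3.68 and 4.66. The ranges of the libraries overlapped in every cluster. Thinned to 1000 UMIs, 81.6% [80.5–82.8] of chow and 78.8% [77.7–79.8] of ketogenic cells had UMIs of at least 3 members.

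**Figure D4:**
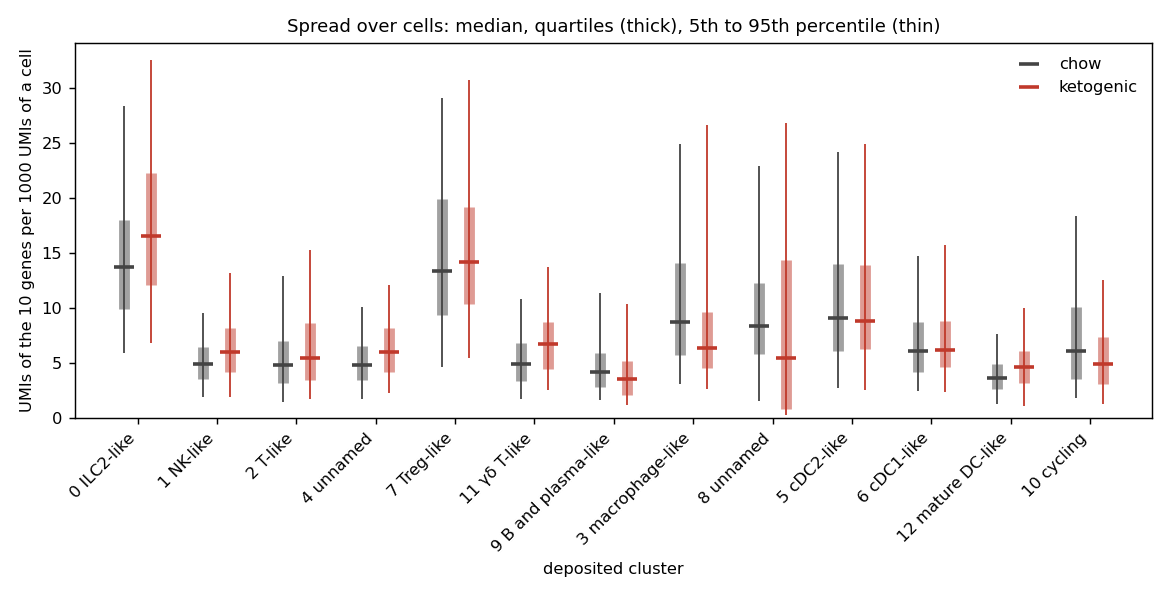
UMIs of the 10 genes per 1000 UMIs of a cell, by deposited cluster, for the chow (grey) and ketogenic (red) library, with the median as a short line, the quartiles as a thick bar and the 5th to 95th percentile as a thin line over cells. ILC2-like and Treg-like cells have the highest medians, 13.7 and 13.3 under chow, and the libraries overlap in every cluster.

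How often members shared a cell was described without a background: pairs of other genes were not computed and differences between clusters were not tested. After thinning, the odds ratio of finding a pair of members in the same cell was above 1 for 45 of 45 pairs in macrophage-like cells of both libraries, with medians of 1.62 under chow and 1.87 with ketogenic feeding, and for 45 of 45 in cDC2-like cells (1.86 and 1.92), cDC1-like cells (1.55 and 1.47) and cycling cells (1.88 and 1.61). Treg-like cells had 40 and 44 pairs above 1 with medians of 1.61 and 1.68, and mature DC-like cells 37 and 42 with 1.23 and 1.39. ILC2-like cells had 43 and 42 of 45 pairs above 1 with medians of 1.37 and 1.46, and NK-like cells 37 and 40 with 1.12 and 1.28. In ketogenic cells of cluster 8, which include the cells low in Malat1, the median was 5.70. These are descriptions of sparse counts over cells of 1 library each.

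Other genes of the pathway were read from lists, by their cluster-weighted ratio. Of 14 measured AP-1 partners and relatives, 4 were higher and 10 lower with a median of −0.18, and 1 was past 2-fold: Jdp2, a repressor that pairs with Jun proteins, went from 12.2 to 5.73 CPM (297 and 151 UMIs, −1.09). Fosl2 (398 to 284 CPM, −0.49) and Batf3 (72.3 to 39.7 CPM, −0.86) were lower in 13 of 13 clusters. Of 16 other immediate early transcription factors, 7 were higher, 9 lower and 0 past 2-fold, with a median of −0.14. Among them Nr4a3, a relative of Nr4a1, went from 189 to 107 CPM (−0.82) and Ier3 from 139 to 84.7 CPM (−0.71), each lower in 13 clusters, and Egr2, a relative of Egr1, from 23.7 to 15.5 CPM (−0.61). Myc, a driver of growth, went the other way, from 25.4 to 36.4 CPM (0.52, higher in 11 clusters), as did Nfil3, from 51.0 to 64.3 CPM (0.33, higher in 9).

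Of 19 feedback phosphatases and other brakes, 12 were higher and 7 lower with a median of 0.12, near the 0.06 of all genes. Dusp4, a nuclear phosphatase of ERK, was past 2-fold, from 4.59 to 10.8 CPM (85 and 339 UMIs, 1.23), and was higher in 13 clusters and at least 2-fold in 7. Dusp6, the cytoplasmic ERK phosphatase, went from 19.4 to 29.0 CPM (0.58), and Dusp10 (0.30) and Socs1 (0.41) were higher in 13 clusters too, whereas Trib1 (−0.41) was lower in 13. The lowest of this list were Spred1 at −0.67 and Nfkbiz at −0.54, each lower in 12 clusters, and Spry2 at −0.51, which was lower in 6 clusters and higher in 7. The cluster counts of list genes include clusters under 10 UMIs: Dusp4, Dusp10, Trib1, Ier3, Myc and Spry2 reached 10 UMIs in 12 clusters, and Jdp2, Egr2, Dusp6 and Spred1 in 10. Of genes that reached it in all 13, 6.32% were higher and 2.49% lower in all 13. Of 11 genes of mRNA decay and the Btg family, 7 were higher and 0 past 2-fold, with a median of 0.21. Btg1, the closest relative of Btg2, went from 1277 to 1767 CPM (0.47) and was higher in 12 clusters, and Tob1 from 53.9 to 79.4 CPM (0.56). Of 17 upstream regulators 9 were higher, 8 lower and 0 past 2-fold, with a median of 0.03, and Srf itself went from 23.9 to 18.7 CPM (−0.35).

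Heat shock genes, which like the members are known to be induced by dissociation, were 6 higher and 5 lower of 11, with a median of 0.19. One of them was past 2-fold, Hspa1a, from 42.2 to 123 CPM (1377 and 3474 UMIs, 1.54), higher in 13 clusters and at least 2-fold in 11. Its near-identical copy Hspa1b stood at 0.19, and reads that fit both genes may have been lost or split, so the value of either is uncertain. For 8 housekeeping genes, 5 were higher and 3 lower, with a median of 0.18 and a range from −0.24 to 0.71. The part of dissociation in the members' values was not tested.

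**Figure D5:**
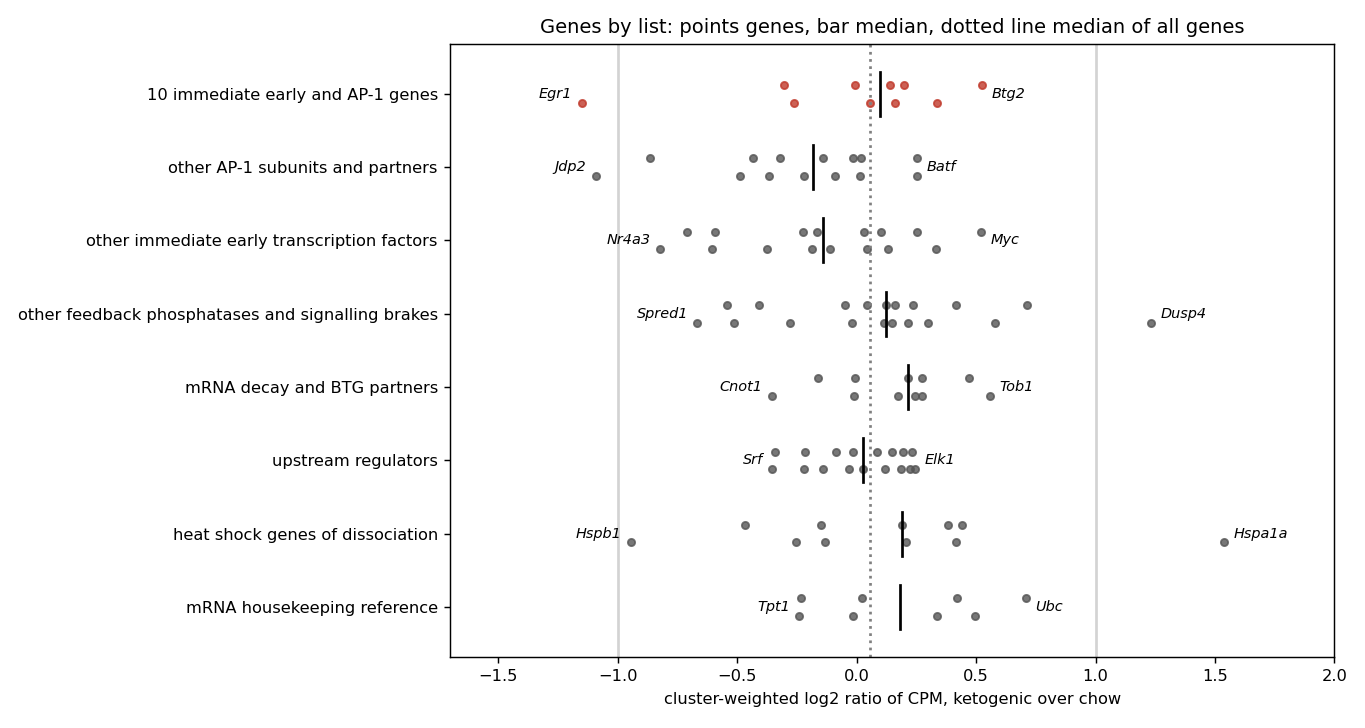
Cluster-weighted log2 ratio of CPM, ketogenic over chow (x axis), for each measured gene (points) of the 10 members and 7 lists (rows), with the median as a black bar, 2-fold as grey lines and the median of all genes, 0.06, as a dotted line. Egr1 and Jdp2 lie beyond 2-fold on the lower side, and Dusp4 and Hspa1a on the higher side.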

How the data were processed

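The 2 libraries were grouped by the diet in their labels, 1 per diet. The deposited values are raw UMI counts per gene and cell, not normalised by the authors, as the whole numbers in the matrices show. Cell Ranger, Seurat and the mm10 build are named in the submitters' processing notes, with no version or role. Clusters come from the authors' deposited table (resolution 0.5 per the file headers), and its t-SNE coordinates were not used. All 142 cells outside it had at least 5% mitochondrial UMIs and are not in the comparisons.

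The members and gene lists were chosen with earlier results of these data known. Counts were summed per cluster and library with Python 3.11.15 (numpy 2.4.6, pandas 2.3.3, scipy 1.17.1, scanpy 1.11.5 for the Leiden clusters) and scaled to CPM. The log2 ratio had 0.5 added to each count. A call is a 2-fold difference with at least 10 UMIs over both libraries. Ratios over all cells weight the CPM of every cluster by the mean of its cell shares in the libraries, and genes needed 100 UMIs. Thinning to 1000 UMIs per cell used the exact expectation over all draws, rounded to whole cells, and left out no cell. Shares have exact binomial (Clopper-Pearson) 95% intervals. No doublet caller was run, and cells above 2 times the median UMIs of their cluster were left out in an alternative. Named genes are all members, list genes past 2-fold over all cells, and the 10 most alike genes; further list genes were picked with their values known. The scripts were tested on simulated data. Further alternatives were another scaling, mean over cells, a UMI minimum, leaving out the top cell of each gene, subtracting 10% free RNA, and other clusters.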

Additional observations from a re-analysis of the deposited data

Results flagged for a closer look

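For 7 of the 10 members the intervals of the ratio lay above 1 in some clusters and below 1 in others. For 3 of them, Fos, Jun and Zfp36, the largest such difference of log2 ratios was at least 1, and for Junb, Jund, Ier2 and Dusp1 it was smaller. The differences themselves were not tested. How many of all genes have intervals on both sides of 1 was not computed, so the count of members has no background. Fos was higher under the ketogenic diet in mature DC-like cells and lower in B and plasma-like cells, a difference of log2 ratios of 1.51. Jun was higher and lower in the same clusters, with a difference of 2.62. Zfp36 was higher in cluster 8 and lower in the cycling cluster, with a difference of 1.49. Within cluster 8 it was higher in cells without C1q UMIs (0.46) and not in those with them (−0.33). In B and plasma-like cells the median gene stood at 0.47 and in mature DC-like cells at 0.03, so against those medians the differences of Fos and Jun are larger.

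Signal was also found in cells that no comparison used. The 55 ketogenic cells outside the cluster table had 2454 CPM [2228–2698] of Junb, from 431 UMIs, and the 87 chow cells outside it had 1705 CPM [1538–1886], from 379 UMIs. Egr1 had 324 CPM [253–408] from 72 UMIs in these chow cells and 11.4 CPM [1.38–41.1] from 2 UMIs in these ketogenic cells.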

How the results depend on the processing

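No paired analysis was possible because each diet has 1 library. The 2 pairs past 2-fold higher and 11 past it lower became 9 and 25 at a 1.5-fold threshold, and the higher ones 4 when 10% of each cluster's UMIs was subtracted as free RNA; other alternatives gave 2 to 3 higher and 9 to 15 lower. The members' weighted median of 0.10 was 0.039 with scaling to the median gene (median of ratios) and −0.25 without cluster weights. The share of thinned cells with at least 3 members (81.6% chow, 78.8% ketogenic) was 91.6% and 89.04% at 1500 UMIs, 98.3% and 98.4% without thinning, 98.7% and 98.2% for at least 1 member and 44.4% and 38.6% for at least 5. By construction a deeper draw or a lower count gives a larger share, and the cause of the other shifts was not tested. Egr1 was lower in 13 of 13 clusters under each of the alternatives run, past 2-fold in 7 to 9 of them, with a weighted ratio of −1.22 to −1.08 (−1.69 without weights). Btg2 was higher in 11 to 12 clusters, Junb in 10 to 12, Fosb lower in 11 to 13 and Zfp36 in 10 to 12. The alternatives without cells above 2 times the median UMIs, without cells low in Malat1 and without shared barcodes were chosen after seeing the data. In cluster 9 the Egr1 ratio moved to −0.58 without cells above 2 times the median, and in mature DC-like cells the Jun ratio to 3.83 with free RNA subtracted. No member's value past 2-fold changed its direction under the alternatives run. These were run for the members only, and not for Jdp2, Dusp4 or Hspa1a. Depth limits the Egr1 ratios of mature DC-like cells, which rested on 19 chow and 6 ketogenic UMIs, and of γδ T-like cells, which rested on 18 and 23.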
